A study of Homo sapiens with 6 samples.

Results

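The DUSP and Sprouty feedback inhibitors are proteins that dampen mitogen-activated protein (MAP) kinase signalling and whose genes are, for the most part, switched on by that same signalling. The 10 genes considered were DUSP1, DUSP2, DUSP4, DUSP5, DUSP6, DUSP10, SPRY1, SPRY2, SPRED1 and SPRED2, kept where their mean over the 6 libraries was at least 10 normalized counts. Of these, 8 reached that level, as did 13465 of the 17202 genes in the deposited table. DUSP4, with a mean of 8.78, lay just below it, and SPRY1, with a mean of 42.5, was the lowest member above it. SPRED1 had no row among the values used and was not analysed here.

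RNA was sequenced with a strand-specific protocol from DND41, a human line of T-cell acute lymphoblastic leukaemia, in 6 libraries. Cells of 3 libraries had been given MB1-47, named in the series title as a mitochondrial uncoupling drug, and cells of the other 3 had been given its solvent DMSO, all for 24 h in medium with 10% serum. The labelled dose of MB1-47 is 4 mM, repeated here as written and not checked. The labels speak of triplicate plating and do not say how far the replicates were independent, and the p-values given here reflect only how far these libraries differ, in part perhaps for technical reasons. Both groups are the same line, so the comparison describes DND41 and no other T-cell leukaemia.

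In the MAP kinase cascades, receptors load RAS with GTP, RAS recruits RAF, and RAF activates MEK and then ERK. Parallel cascades lead to the stress-activated kinases JNK and p38. Dual-specificity phosphatases of the DUSP family remove phosphate from both the threonine and the tyrosine that switch a MAP kinase on. Sprouty (SPRY) and SPRED proteins act further up, between receptor and RAF, and SPRED proteins bring the RAS inactivator neurofibromin to the membrane. Transcripts of several of these genes, DUSP6 above all, are widely read as an output of ERK activity. ERK activity was not measured here.

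The sequences just upstream of 2 members are shown because DUSP2 had the largest change among the called members, while DUSP1, also a nuclear phosphatase, was not called and its groups overlapped. Each is the 250 bases before the RefSeq start on the minus strand of GRCh38.p14, at chr2:96145441-96145690 for DUSP2 and chr5:172771196-172771445 for DUSP1. Capitals mark matches to the motifs searched. The RefSeq window of DUSP6 is not shown, since it lies inside the first exon of DUSP6 in GENCODE 29, where the transcript starts further upstream.
DUSP2: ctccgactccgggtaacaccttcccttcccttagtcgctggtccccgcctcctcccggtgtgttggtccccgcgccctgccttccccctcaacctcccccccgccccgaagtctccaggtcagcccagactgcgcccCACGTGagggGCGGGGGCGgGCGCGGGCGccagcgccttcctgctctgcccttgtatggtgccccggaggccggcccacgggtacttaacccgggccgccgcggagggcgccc
DUSP1: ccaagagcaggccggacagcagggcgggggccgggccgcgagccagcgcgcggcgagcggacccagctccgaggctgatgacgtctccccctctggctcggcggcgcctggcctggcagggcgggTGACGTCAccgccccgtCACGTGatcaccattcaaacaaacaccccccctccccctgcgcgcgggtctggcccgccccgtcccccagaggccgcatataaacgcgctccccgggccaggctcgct

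The motifs, searched on both strands of 300-base windows that also hold the 50 bases after the start, were a cyclic AMP response element (TGACGTCA), an AP-1 site (TGANTCA), an ETS site (CCGGAAGT), an EGR site (GCGNGGGCG), an E-box (CACGTG), a FOXO site (GTAAACA) and the CArG box of serum response factor. The DUSP2 sequence held an E-box whose first base lay at -113 from the start and EGR matches at -103 and -93, none of which overlapped. The DUSP1 sequence held a cyclic AMP response element at -125 and an E-box at -108. Some members had more than 1 window, numbered here, each with its own RefSeq start. EGR matches also stood in windows of members that were not called. They lay at -134 and -41 in window 1 of SPRY2 and at -28 in window 2 of SPRY1. SPRED2, not called either, held AP-1 matches at -6 and 35 in its window 2. Window 1 of SPRY1 and of SPRED2 and windows 2 and 3 of SPRY2 had no match. The windows of DUSP6 and DUSP10 had no match, which says only that these letters are absent from them. Among 34796 windows of the same length, 9.43% held the EGR motif, 7.73% the AP-1 motif, 7.20% the E-box and 1.84% the cyclic AMP response element. These shares were not matched for the content of G and C. That content was 75.0% in the DUSP2 window, 71.0% in window 1 of SPRY2 and 69.3% in window 2 of SPRY1. The DUSP1 window, without an EGR match, had 73.3%.

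Transcripts of the ERK phosphatase DUSP6 and of the lymphocyte phosphatase DUSP2 were lower with MB1-47 than with DMSO, by 1.85-fold and 6.0-fold. DUSP10, a phosphatase of JNK and p38, was 1.96-fold higher with a call that depended on every library. Of the 8 members tested, 2 were called lower, 1 was called higher and 5 were not called. Across all 13465 genes, 19.8% were called lower, 18.3% higher and 38.1% in either direction by limma with Benjamini-Hochberg adjustment over all genes at a threshold of 0.05, so 3 of 8 is a share near the background. Scaling the libraries to equal totals gave 3335 genes higher and 2063 lower, beside 2458 and 2667 as reported, and moved the median of all genes by over 0.1, with the same 3 members called. Groups did not overlap in 5 of the 8, against 49.3% of all tested genes. The median log2 fold change of the 8 was -0.34, beside 0.02 for all tested genes, and each of the 8 had a mean above 10 in both groups. Each change below is the difference MB1-47 minus DMSO in mean log2(value + 1), given ± SE, a scale that understates changes of low genes, and levels are normalized counts as mean ± SD (n = 3). They are relative levels in a bulk sample, where fewer cells that make a transcript and less of it per cell cannot be told apart.

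**Figure D1:**
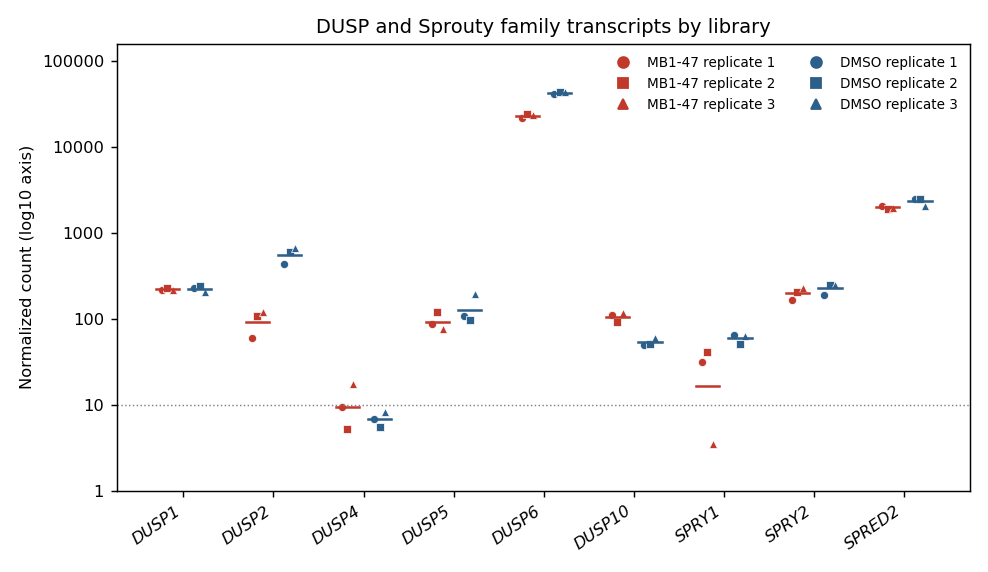
Normalized counts of the 9 DUSP, SPRY and SPRED genes with a row in the table, by library, on a log10 axis; symbols are replicates, bars are means of the log10 values and the dotted line is the level of 10 that a gene's mean had to reach. DUSP6 is the highest in every library, from 21571 up, and lower in all 3 MB1-47 libraries, DUSP2 is lower and DUSP10 higher with no overlap, and SPRY1 in MB1-47 replicate 3 stands at 3.51.

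DUSP6 encodes a cytoplasmic phosphatase that is selective for ERK. It lies on the minus strand of chromosome 12 from 89347232 to 89353271 in GENCODE 29 on GRCh38. An antisense gene overlaps its first exon there, and whether strand was used in the counting was not stated. DUSP6 stood at 21571, 24423 and 23737 normalized counts in MB1-47 replicates 1, 2 and 3, and at 41583, 43389 and 44069 in DMSO replicates 1, 2 and 3. Every MB1-47 library was below every DMSO library, and replicates within a group lay close together. The change was -0.89 ± 0.07 (adjusted p = 6.35e-06 by limma), from 23244 ± 1489 with MB1-47 and 43014 ± 1285 with DMSO. DUSP6 was by far the most abundant member: it ranked 85 to 121 among the 17202 genes of an MB1-47 library and 33 to 46 in a DMSO library by normalized count, a rank that takes no account of transcript length. Of all tested genes, 10.8% had a more negative change than DUSP6. Quantile normalization, which forces the same distribution on every library, gave a smaller change of -0.62 ± 0.08, and equal library totals gave -0.76 ± 0.07.

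DUSP2 encodes a nuclear phosphatase of MAP kinases known from activated lymphocytes. The gene lies on the minus strand of chromosome 2 from 96143166 to 96145440. MB1-47 replicates 1, 2 and 3 held 60.3, 109 and 120 normalized counts, and DMSO replicates 1, 2 and 3 held 436, 602 and 663. The highest MB1-47 library was far below the lowest DMSO library, and replicate 1 was the lowest library in each group. The change was -2.59 ± 0.29 (adjusted p = 5.07e-05), from 96.2 ± 31.6 with MB1-47 and 567 ± 117.7 with DMSO. Only 81 of the 13465 tested genes, or 0.602%, had a more negative change.

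DUSP1, DUSP4 and DUSP5 are the other nuclear phosphatases among the members. DUSP1, an immediate early gene whose product acts on ERK, JNK and p38, stood at 217, 228 and 219 with MB1-47 and at 231, 238 and 205 with DMSO. The MB1-47 values lay inside the range of the DMSO values, with a change of -0.02 ± 0.20 and a 95% interval from -0.47 to 0.43. That sign was positive with equal library totals (0.11) and with scaling by trimmed means of M values (0.0020). DUSP5, which is selective for ERK, stood at 88.1, 119 and 75.8 with MB1-47 and at 107, 98.0 and 194 with DMSO. The groups overlapped, DMSO replicate 3 was the highest library, and the change of -0.45 ± 0.35 (95% interval -1.21 to 0.32, adjusted p = 0.341) became -0.14 without that replicate. DUSP4 was near the lower end of the table, at 9.52, 5.27 and 17.2 with MB1-47 and at 6.88, 5.5 and 8.33 with DMSO, and its groups overlapped. Its change in a fit without the filter was 0.44 ± 0.79 (95% interval -1.27 to 2.15).

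DUSP10, on the minus strand of chromosome 1 from 221701424 to 221742176, encodes a phosphatase that prefers JNK and p38 over ERK. It stood at 110, 92.4 and 118.3 with MB1-47 and at 50.04, 51.5 and 60.0 with DMSO. All 3 MB1-47 libraries were above all 3 DMSO libraries. The change was 0.97 ± 0.32 (adjusted p = 0.0350), from 107 ± 13.3 with MB1-47 and 53.8 ± 5.39 with DMSO. The direction held in all 15 alternative settings and the call in 7. The other filters, the fit without a trend and the replicate block cannot alter the fold change, only its error or the adjusted p. Leaving out any 1 library ended the call, with adjusted p-values of 0.0966, 0.0565 and 0.109 without MB1-47 replicate 1, 2 or 3 and of 0.0668, 0.0725 and 0.0542 without DMSO replicate 1, 2 or 3.

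None of the 3 measured Sprouty and SPRED members was called. SPRY1, which binds adaptor proteins below growth factor receptors, stood at 31.2, 40.9 and 3.51 with MB1-47 and at 65.2, 50.8 and 63.3 with DMSO. The groups did not overlap, and MB1-47 replicate 3 was far below the other libraries of its group. The change was -1.73 ± 0.77 (95% interval -3.43 to -0.02, adjusted p = 0.104). It became -0.72 without MB1-47 replicate 3, and without MB1-47 replicate 2 it became -2.33 with an adjusted p of 0.0482, which passed the threshold. SPRY2 stood at 168, 207 and 227 with MB1-47 and at 190, 244 and 250 with DMSO, with overlapping groups and a change of -0.18 ± 0.23 (95% interval -0.69 to 0.32). SPRED2, the most abundant of this branch, stood at 2071, 1906 and 1972 with MB1-47 and at 2460, 2510 and 2078 with DMSO. Its MB1-47 libraries were all below its DMSO libraries by a narrow margin, with a change of -0.24 ± 0.11 (95% interval -0.48 to -0.01, adjusted p = 0.10). Without DMSO replicate 3 the change of SPRED2 was -0.33 with an adjusted p of 0.0484, past the threshold, and with equal library totals it was -0.11.

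**Figure D2:**
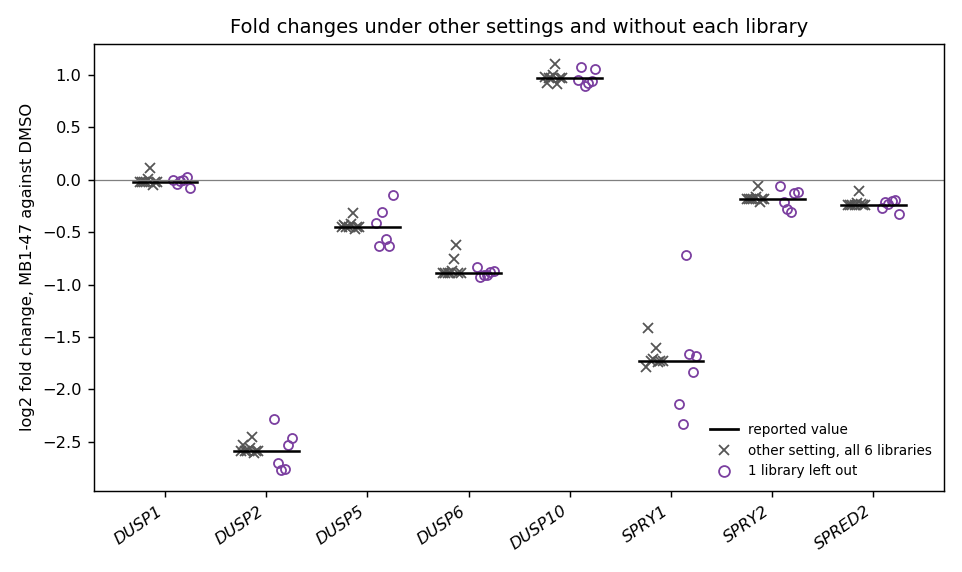
Log2 fold change of each of the 8 tested members under the reported setting (bar), under 9 other settings with all 6 libraries (crosses) and with each library left out (open circles). Crosses for the other filters, no trend and the replicate block equal the bar by construction. SPRY1 has no cross for the filter at a mean of 50, which it did not reach. DUSP2 ranges from -2.77 to -2.28 and DUSP6 from -0.93 to -0.62, while SPRY1 moves to -0.72 without MB1-47 replicate 3 and DUSP1 lies on either side of 0.

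Levels were also set per kilobase of the longest protein-coding transcript in GENCODE 29, so that genes could be ordered within a group; the transcript used by these cells was not determined. With MB1-47, DUSP6 led at 5283 ± 338 normalized counts per kilobase, followed by SPRED2 at 484 ± 20.3, DUSP1 at 110 ± 2.87, SPRY2 at 74.0 ± 11.1, DUSP2 at 57.0 ± 18.7, DUSP10 at 40.0 ± 4.96, DUSP5 at 36.9 ± 8.73, SPRY1 at 9.66 ± 7.44 and DUSP4 at 1.93 ± 1.09. In that order the library ranges of SPRY2 and DUSP2, of DUSP2 and DUSP10, of DUSP10 and DUSP5, and of SPRY1 and DUSP4 overlapped. With DMSO the order was DUSP6 at 9776 ± 292, SPRED2 at 573 ± 57.7, DUSP2 at 336 ± 69.7, DUSP1 at 111 ± 8.59, SPRY2 at 84.2 ± 12.3, DUSP5 at 52.0 ± 20.7, SPRY1 at 22.9 ± 3.0, DUSP10 at 20.1 ± 2.01 and DUSP4 at 1.25 ± 0.26. There the ranges of SPRY2 and DUSP5 and of SPRY1 and DUSP10 overlapped. DUSP2 thus stood above DUSP1 in the DMSO libraries and below it in the MB1-47 libraries, with no overlap in either group.

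Log2 ratios of paired members within a library, formed after adding 1 to each value, depend little on how libraries were scaled. Pairs of this kind could be formed for 3 sets of relatives; the SPRED1 and SPRED2 pair was not analysed here. The log2 ratio of DUSP1 to DUSP10, the broad nuclear phosphatase over the one that prefers JNK and p38, was 0.97, 1.29 and 0.89 with MB1-47 and 2.18, 2.19 and 1.76 with DMSO. The groups did not overlap, with a difference of -0.99 (two-sided exact permutation p = 0.1, adjusted p = 0.15 over the 3 pairs). The log2 ratio of SPRY1 to SPRY2 was -2.39, -2.31 and -5.66 with MB1-47 and -1.53, -2.24 and -1.96 with DMSO, again without overlap (difference -1.54, exact permutation p = 0.1, adjusted p = 0.15), and MB1-47 replicate 3 stood far below the rest. Without that replicate the difference was -0.44. The log2 ratio of DUSP5 to DUSP6, the nuclear over the cytoplasmic ERK phosphatase, was -7.92, -7.67 and -8.27 with MB1-47 and -8.59, -8.78 and -7.82 with DMSO, with overlap (difference 0.44, exact permutation p = 0.3, adjusted p = 0.3). With 3 libraries against 3 the smallest p this test can give is 0.1, so none could pass.

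Among other genes of these families and of related MAP kinase phosphatases, DUSP7 and PTPN7 were lower and DUSP16 and DUSP22 higher. Of 18 listed, 12 were tested, 2 were called higher, 2 lower and 8 were not called. The share called was 33.3%, beside 38.1% of all tested genes. With equal library totals 4 were higher and 2 lower. DUSP7, a close relative of DUSP6 and also a cytoplasmic ERK phosphatase, stood at 994, 1163 and 1072 with MB1-47 and at 1928, 1890 and 1876 with DMSO. That is a change of -0.82 ± 0.11 (adjusted p = 0.000147) without overlap. PTPN7, a tyrosine phosphatase of haematopoietic cells that acts on ERK and p38, stood at 550, 791 and 688 with MB1-47 and at 1480, 1695 and 1820 with DMSO, a change of -1.31 ± 0.15 (adjusted p = 6.49e-05). Both were called lower in all 15 alternative settings.

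DUSP16, which like DUSP10 prefers JNK and p38, stood at 90.4, 96.3 and 119 with MB1-47 and at 45.5, 58.4 and 52.2 with DMSO. Its change of 0.95 ± 0.33 (adjusted p = 0.0433) lost its call in 9 of 15 settings, among them those without each of the 6 libraries, where the adjusted p ran from 0.0585 to 0.140. DUSP22, a small atypical phosphatase that acts in T cell receptor signalling, changed by 0.45 ± 0.12 (adjusted p = 0.0151), and its call was lost without MB1-47 replicate 1 (0.0543) or 2 (0.0547). SPRY4 (added), often read beside DUSP6 as an ERK output, was almost absent, at 0, 0 and 3.92 with MB1-47 and at 0, 3.92 and 3.67 with DMSO. DUSP14 (added) was listed at 0 in MB1-47 replicate 1 and at 382 and 430 in the other MB1-47 libraries, against 707, 641 and 525 with DMSO.

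**Figure D3:**
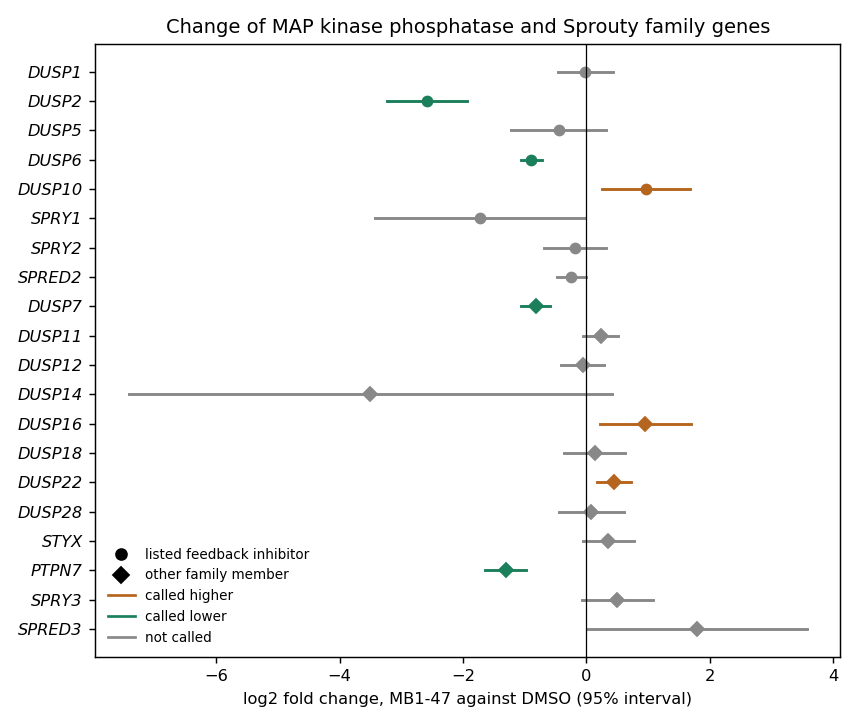
Log2 fold change of MB1-47 against DMSO with its 95% interval for the 8 tested members (circles) and 12 other tested family genes (diamonds), coloured by call. DUSP2, DUSP6, DUSP7 and PTPN7 are called lower, DUSP10, DUSP16 and DUSP22 higher, and the intervals of SPRY1, DUSP14 and SPRED3 are the widest.

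Transcripts that ERK signalling is known to induce went both ways, with EGR1, ETV4, IER2 and ETV5 called lower and JUN and PHLDA1 higher. Of 16 listed, 11 were tested, 4 were called lower, 2 higher and 5 were not called, with a median of -0.61; with equal library totals 3 were lower and 2 higher, and with quantile normalization 5 were lower and 1 higher. Of all tested genes 19.8% were called lower and 18.3% higher, with a median of 0.02, and the difference between the list and other genes was not tested. EGR1, a zinc finger factor induced through serum response factor, stood at 621, 902 and 730 with MB1-47 and at 4792, 5600 and 4473 with DMSO, a change of -2.73 ± 0.14 (adjusted p = 4.73e-07). ETV4, an ETS factor induced by ERK, stood at 22.5, 13.5 and 30.2 with MB1-47 and at 233, 176 and 128 with DMSO, a change of -2.99 ± 0.43 (adjusted p = 0.000247). IER2, another immediate early gene, changed by -1.75 ± 0.16 (adjusted p = 1.17e-05). These 3 genes were called lower in all 15 alternative settings.

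ETV5 (added), a relative of ETV4, changed by -0.60 ± 0.16 (adjusted p = 0.0135) and lost its call without MB1-47 replicate 3 (0.0580), with equal library totals (0.0525) and without a trend (0.0582). JUN, a component of AP-1 that JNK activates, went the other way, at 457, 463 and 499 with MB1-47 and 267, 311 and 219 with DMSO, a change of 0.84 ± 0.19 (adjusted p = 0.00452) called in all 15 settings. PHLDA1, which is also counted among ERK outputs, changed by 0.74 ± 0.26 (adjusted p = 0.0423). Its call was lost in 8 settings, among them those without MB1-47 replicate 1 (0.124) or 3 (0.120) and without DMSO replicate 1 (0.104) or 3 (0.13). FOS (added) overlapped between the groups, with 117.7 ± 34.2 with MB1-47 and 177 ± 27.8 with DMSO. FOSB and JUNB (both added) also overlapped and were not called. EGR2 and EGR3 (both added) were lower without overlap but not called. Their changes were -0.98 ± 0.36 (adjusted p = 0.0544) and -2.61 ± 1.07 (adjusted p = 0.0788), and EGR3 lay near the floor. Groups did not overlap, in either direction, in 8 of the 11 tested, against 49.3% of all tested genes.

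**Figure D4:**
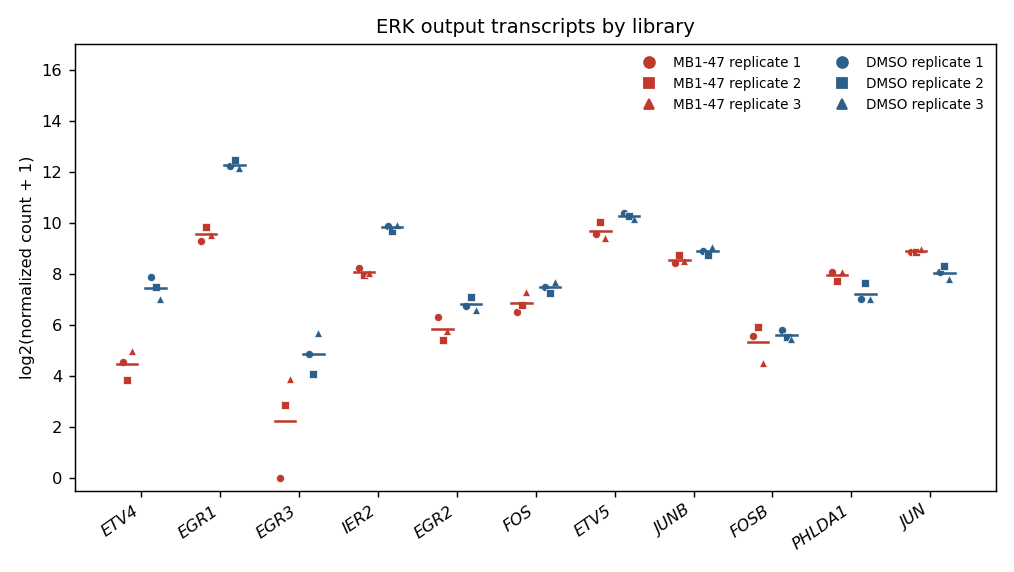
Log2(normalized count + 1) of the 11 tested ERK output transcripts by library, ordered by fold change; symbols are replicates and bars are means of the log2 values. EGR1, ETV4 and IER2 are lower in every MB1-47 library than in any DMSO library, JUN and PHLDA1 are higher, and EGR3 is listed at 0 in MB1-47 replicate 1.

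MAPK3 (added), which encodes an ERK kinase, was not called. Its difference was 0.10 ± 0.13 (95% interval -0.19 to 0.39), and its groups overlapped. Of 20 genes from RAS to ERK, 6 were higher, 3 lower and 11 were not called, with a median of 0.09. The share called was 45.0%, beside 38.1% of all tested genes. With equal library totals 7 were higher and none lower. GAB2, an adaptor that carries signals from receptors to RAS, stood at 21064, 20866 and 17593 with MB1-47 and at 5535, 5966 and 6023 with DMSO, a change of 1.76 ± 0.09 (adjusted p = 4.31e-07). KSR1, a scaffold of RAF and MEK, changed by 1.62 ± 0.35 (adjusted p = 0.00371), and SOS2, an exchange factor for RAS, by 1.05 ± 0.10 (adjusted p = 1.93e-05). SOS1, BRAF and MAP2K2 (all added) were the other genes called higher, with changes of 0.88, 0.91 and 0.53.

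The 3 genes called lower in that list were HRAS (-0.80 ± 0.28), MAP2K1 (-0.33 ± 0.10), which encodes MEK1, and PTPN11 (-0.27 ± 0.08), which encodes the phosphatase SHP2. Each lost its call in 6 or 7 of 15 settings, equal library totals and the removal of MB1-47 replicate 1, DMSO replicate 1 or DMSO replicate 3 among them. Without those libraries the adjusted p was 0.111, 0.123 and 0.108 for HRAS, 0.10, 0.0670 and 0.0938 for MAP2K1, and 0.0553, 0.0560 and 0.0506 for PTPN11. HRAS also lost it without MB1-47 replicate 3 (0.108), and MAP2K1 (0.0765) and PTPN11 (0.0613) without MB1-47 replicate 2.

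Of 15 genes of the JNK and p38 cascades, 2 were higher, 1 lower and 12 were not called. The share called in either direction was below the 38.1% of all tested genes. With equal library totals 4 were higher and 1 lower. MAP3K1, a kinase upstream of JNK, changed by 0.75 ± 0.12 (adjusted p = 0.000458), and MAPKAPK3, a kinase that p38 activates, by -1.13 ± 0.11 (adjusted p = 1.45e-05). MAPKAPK2, its paralog, stood at 1615 ± 145 with MB1-47 and 1275 ± 134 with DMSO (0.34 ± 0.12, adjusted p = 0.0474). Its call was lost in 8 settings, including those without MB1-47 replicate 1 (0.0553), 2 (0.148) or 3 (0.0906) and without DMSO replicate 2 (0.150) or 3 (0.0751).

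Inhibitors of RAS and RAF outside the Sprouty family went both ways. Of 11 listed, 10 were tested, 3 were higher, 1 lower and 6 were not called. The share called was 40.0%, beside 38.1% of all tested genes. With equal library totals 4 were higher and 1 lower. RASA1, which speeds GTP hydrolysis by RAS, changed by 0.60 ± 0.14 (adjusted p = 0.00619). NF1, neurofibromin, the partner of SPRED proteins, stood at 8943, 9178 and 10374 with MB1-47 and at 7740, 8610 and 6649 with DMSO. Its change of 0.31 ± 0.10 (adjusted p = 0.0356) lost its call in 4 settings, without a trend (0.131) and when MB1-47 replicate 3 (0.141) or the DMSO replicates 1 (0.0615) or 3 (0.153) were left out. RASA3, a relative of RASA1, changed by 0.55 ± 0.18 (adjusted p = 0.0349) and lost its call in 5 settings, with the replicate number as a block (0.0562) and without MB1-47 replicate 2 (0.104) or 3 (0.101) or DMSO replicate 2 (0.0981) or 3 (0.111). PEBP1, a protein that holds RAF away from MEK, stood at 1944, 2432 and 1893 with MB1-47 and at 4734, 4380 and 5008 with DMSO, a change of -1.18 ± 0.11 (adjusted p = 1.68e-05).

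**Figure D5:**
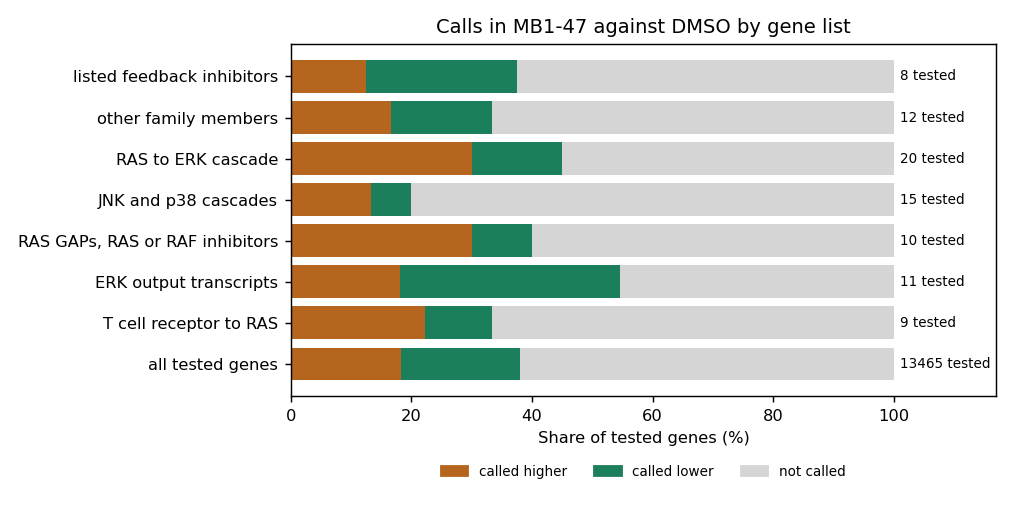
Share of tested genes called higher, called lower or not called for the listed feedback inhibitors, for 6 lists of related genes and for all 13465 tested genes. The feedback inhibitors, with 2 of 8 lower and 1 of 8 higher, lie near the 38.1% of all genes called in either direction. The ERK outputs have 4 of 11 lower, beside 19.8% of all tested genes. The RAS to ERK list has 6 of 20 higher, beside 18.3%.

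The identity of the cells was checked against marker genes. T-lineage markers were present, with summed values of 10 genes from 25473 to 29781 in MB1-47 libraries and from 46043 to 50248 in DMSO libraries. Of the 10, CD3D, CD3G, CD7 and LCK were called lower and none higher (4 lower and 1 higher with equal library totals). The share called was 40.0%, beside 38.1% of all tested genes. CD5 was listed at 0 in DMSO replicate 1. The sum of 4 B-lineage genes ran from 6610 to 7227 with MB1-47 and from 16118 to 17280 with DMSO, nearly all of it CD79A. The 2 myeloid genes with a row summed to at most 11.2 with MB1-47 and 22.9 with DMSO, with CD14 at 0 in all MB1-47 libraries, and the 2 erythroid genes to at most 36.5 and 26.7. The stromal and epithelial genes summed to 986 to 1256 with MB1-47 and 1466 to 1836 with DMSO, most of it PDGFRB. The part of these shifts in the changes of DUSP2 and DUSP6 was not tested.

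The 3 genes whose pattern over the 6 libraries was most like that of DUSP6, out of 10240 whose mean reached 100, were JMJD4, TTLL12 and PIM1, each with a Pearson r above 0.99 on the log2 scale. PIM1, a serine/threonine kinase gene, averaged 7924 ± 639 with MB1-47 and 17223 ± 341 with DMSO. With 2 groups of 3 such a correlation follows mainly the group difference, and 1227 genes reached an r of 0.95 with DUSP6. For SPRED2 the nearest were PHTF1, TENT4A and NUP43, with r of 0.99, 0.98 and 0.98, and only 16 genes reached 0.95.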

How the data were processed

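Strand-specific RNA-seq of total RNA was made from 6 DND41 libraries, 3 with MB1-47 and 3 with DMSO. The deposited values are normalized counts, a signal per gene symbol and library that is never negative; the authors used kallisto 0.44.0 and DESeq with GRCh38.p13, per the submitters' processing notes. How transcripts were summed to genes, and with which annotation, was not stated in the labels or notes. kallisto splits reads between similar transcripts, so values of close paralogs are estimates. Values are not whole: 59.0% to 64.4% of values below 20 lay within 0.1 of a multiple of the best common step, so reads were not recovered, depth is unknown, and no counting interval is given. Totals of normalized values ran from 28323706 to 32667526. Libraries correlated at 0.955 to 0.968 within groups and 0.927 to 0.948 between groups.

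Genes with a mean of at least 10 were tested as log2(value + 1) with limma 3.58.1 in R 4.3.3 (intensity trend, Benjamini-Hochberg over 13465 genes, threshold 0.05); the steps were tested on simulated data. Ratios were tested with exact permutation in scipy 1.17.1. Gene positions are those of GENCODE 29, and promoter windows those of RefSeq. All members, lists and tests were chosen with earlier results of these data known. The genes named were all members, up to 3 higher and 3 lower genes per list with a mean of at least 50, and the 3 genes most like DUSP6 and SPRED2; genes marked added, and those of the closing observations outside the rule (LAT, SPRED3), were chosen after their values were seen. Alternatives were other pseudocounts (0.5, 5), filters (none, 50) and scalings, no trend, a replicate block and each library left out. Running them on the context lists and genes as well was a later choice, made with the data in view. Tests on counts need whole reads and were not run.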

Additional observations from a re-analysis of the deposited data

How the results depend on the processing

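DUSP6 and DUSP2 were called lower in all 15 alternative settings, and the number of members called lower ran from 2 to 3. The number called higher, 1 in the report, was 0 without the filter, 0 with the replicate number as a replicate block and 0 (lowest and highest) without each library in turn; for DUSP10 the adjusted p was then 0.0613, 0.0540 and 0.0542 to 0.109. The cause was not tested. Same-numbered libraries of the groups deviated together little (r = 0.02, 0.06 and 0.01 for replicates 1, 2 and 3). With 3 libraries per group such values cannot settle whether the numbers pair them. With the block 5246 genes were called in place of 5125. The uncalled change of DUSP1 turned positive with scaling by trimmed means of M values (0.0020), with equal library totals (0.11), without DMSO replicate 1 (0.0013) and without DMSO replicate 2 (0.023), and over the settings that left out 1 library it ran from -0.084 to 0.023. Equal library totals moved the median of all genes to 0.15, beside 0.02, and the calls to 3335 higher and 2063 lower, beside 2458 and 2667. SPRY1 has no value under the filter at 50. The 3 ratios kept their direction in all 8 alternatives each, where no p could pass. Unknown depth limits what can be said of DUSP4, SPRY4 and other genes near 0.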

Other observations

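Genes that carry the T cell receptor signal to RAS were measured beside the feedback inhibitors. Of 9, 2 were higher, 1 was lower and 6 were not called, with 4 higher and 1 lower under equal library totals. The share called was 33.3%, beside 38.1% of all tested genes. RASGRP1, the exchange factor that loads RAS with GTP downstream of diacylglycerol in T cells, stood at 2493, 2418 and 2574 normalized counts with MB1-47 and at 765, 1048 and 912 with DMSO. All MB1-47 libraries were above all DMSO libraries, a change of 1.47 ± 0.13 (adjusted p = 8.41e-06 by limma). LCK, the SRC-family kinase that starts receptor signalling, stood at 1055, 1315 and 1219 with MB1-47 and at 2374, 2791 and 2916 with DMSO, a change of -1.17 ± 0.12 (adjusted p = 3.07e-05). PRKCQ, a protein kinase C of T cells, changed by 0.36 ± 0.11 (adjusted p = 0.0191), and its call was lost without MB1-47 replicate 3 (0.0729) or DMSO replicate 2 (0.0647). LAT, the adaptor at the membrane, stood at 125 ± 9.26 with MB1-47 and 189 ± 8.68 with DMSO without overlap, and was not called (-0.59 ± 0.24, adjusted p = 0.0696).

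SPRED3, a SPRED gene outside the members, stood at 30.9, 55.6 and 71.9 normalized counts with MB1-47 and at 2.86, 24.5 and 30.7 with DMSO, a difference without overlap that missed the threshold (1.80 ± 0.80, adjusted p = 0.103).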
